A study of Mus with 2 samples.

Results

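Scavenger receptors and the genes of lipid uptake were examined in mouse bone marrow derived macrophages (BMDMs) cultured under M2 conditions with or without GW4064, a synthetic agonist of the farnesoid X receptor (FXR). The 10 genes were chosen by name. Of them, Msr1, Marco, Cd36, Cd68, Scarb1, Stab1 and Olr1 encode scavenger receptors, and Lpl, Fabp4 and Fabp5 encode lipoprotein lipase and fatty acid binding proteins. A probe was matched through its RefSeq transcript to 9 of the 10 genes, giving 9 of 13533 measured genes and 12 probes. Cd68 was not analysed here, because none of the transcripts that the RefSeq table used here gives for it names a probe, and a probe listed under an older accession would have been missed.

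The BMDMs came from the bone marrow of 10-week-old male C57BL6/J mice and were grown for 7 d with 10 ng/mL of M-CSF. Both cultures were then driven towards M2 for 24 hr by IL-4 at 10 ng/mL, one with DMSO, the solvent, and the other with 10 µM GW4064. RNA of each culture was read on 1 Agilent 1-colour array, both on the same slide and in the same scan. The number of mice behind each culture is not given in the sources used here, and neither array holds BMDMs without IL-4, so only the agonist could be compared. As each condition had a single array, differences carry neither a replicate error nor a p-value, and 2-fold was the threshold for calling a difference. In the GEO record, the free-text description of the GW4064 sample names DMSO, while its title, source and treatment fields all name GW4064, which was used here.

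Scavenger receptors are membrane proteins of macrophages that bind modified lipoproteins, bacterial products and debris, and bring them into the cell. Because their uptake is not shut off by cellular cholesterol, they are known for turning macrophages into lipid-laden foam cells. Fatty acids reach the macrophage along a second route, in which lipoprotein lipase frees them from triglyceride-rich lipoproteins, CD36 takes them across the membrane and fatty acid binding proteins carry them in the cytosol. Several genes of this route are known targets of PPARγ, and IL-4 is known to raise some of them.

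None of the 9 measured genes differed 2-fold or more between the arrays. Over all measured genes, 276 (2.04%) were at least 2-fold higher with GW4064, and another 367 (2.71%) were at least 2-fold lower, or 211 and 522 when scaled on spike-in control RNA. Of the 9 genes, 6 were higher and 3 were lower on the GW4064 array, with a median log2 difference of 0.085, beside 51.6% higher, 48.2% lower and a median of 0.0069 over all 13533 genes. The scaling moved this count. With the spike-in RNA as the reference, instead of each array's 75th percentile, every difference moved by -0.19, and 3 genes were higher and 6 lower with a median of -0.11. The same shift left 17.9% of all measured genes higher, with a median of -0.18. Marco, Olr1 and Stab1 were higher and Lpl and Fabp5 were lower under each of the 12 settings tried, whereas Msr1, Cd36, Scarb1 and Fabp4 changed direction under at least 1 setting. Several settings could not change a gene read by 1 probe that was unmarked, well above background and outside damaged areas. For Marco, Olr1, Stab1, Cd36, Fabp4 and Fabp5, the filters on spots, probes and areas and the brightest probe therefore gave the same value. The deposited table differed only by a constant of 0.0022.

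By role, among the 6 measured scavenger receptors the log2 differences ran from -0.10 to 0.89, with 5 higher and 1 lower, and with 3 higher and 3 lower after spike-in centring. Among the lipase and both binding proteins they ran from -0.11 to 0.085, with 1 higher and 2 lower, and with all 3 lower after spike-in centring. Of the 9 genes, Marco and Olr1 passed 1.5-fold, a limit passed upwards by 4.39% of all measured genes and downwards by 5.56%. Olr1 stayed below this limit after spike-in centring (0.41) and after a normexp background correction (0.47).

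**Figure D1:**
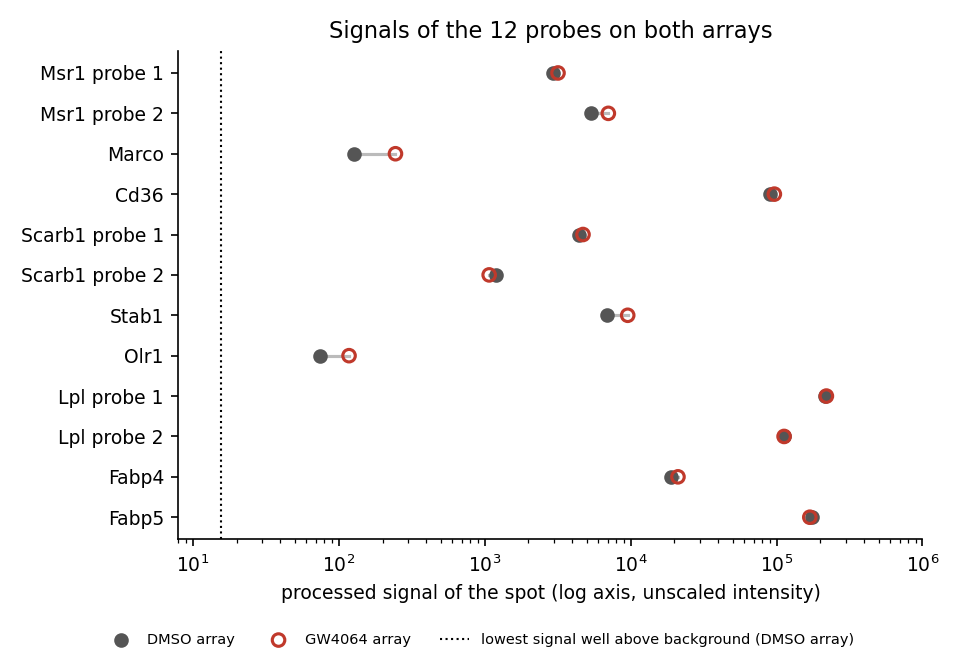
Processed signal of each of the 12 probes (rows), with filled points for DMSO and open points for GW4064, on a log axis, before scaling between arrays. The dotted line marks 15.7, the lowest signal that counted as well above background with DMSO, and all 12 probes lie above it on both arrays, with Marco and Olr1 nearest to it and with the widest gaps between arrays.

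On both arrays all 12 probes stood well above background, none was saturated and none was marked as uneven. Each was printed once, so the precision of a single spot was taken from elsewhere on the arrays. Among probes printed 10 times, the SD of the log2 difference over the copies had a median of 0.13 for 41 probes with a DMSO signal of 50 to 300, the range of Marco and Olr1. It was 0.072 for 101 probes between 1000 and 10000 and 0.070 for 39 probes above 10000. The scanner software gives a larger error for each spot, about 10.0% to 11.0% of the signal, which amounts to 0.20 to 0.22 on the log2 difference between the arrays. Neither is an error between cultures.

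Marco encodes a class A scavenger receptor with a collagen-like stalk that binds bacteria and particles. Its probe (NM_010766) had a signal of 127 with DMSO and 245 with GW4064. After scaling, this was a log2 difference of 0.89, or 1.85-fold, the largest among the 9 genes, and 2.48% of all measured genes had a larger increase. The difference was 4.26 times the software's error and exceeded the spread of copies at this signal. It was 0.60 after the normexp correction, which draws dim signals together, and between 0.69 and 0.91 under the other settings. No spot within 300 µm differed 8-fold or more between the arrays, and the spots in the 5 rows and columns around it had a median log2 difference of -0.055.

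Olr1 encodes LOX-1, a lectin-like receptor for oxidized LDL. Its probe (NM_138648) read 74.3 with DMSO and 118 with GW4064, a log2 difference of 0.60, or 1.52-fold, and 4.20% of all genes had a larger increase. This was 2.76 times the software's error. The difference lay between 0.41 and 0.63 over the settings, and was 0.47 after the normexp correction. The surroundings of the spot had a median difference of -0.021, with 0 spots that differed 8-fold or more within 300 µm. Both Olr1 and Marco were thus read at dim spots, a level at which copies of a probe varied more than at the other levels given above.

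Stab1 encodes stabilin-1, a large endocytic receptor that clears modified lipoproteins and extracellular debris and is a known marker of IL-4-treated macrophages. The signal of its probe (NM_138672) was 6890.3 with DMSO and 9565 with GW4064. The log2 difference was 0.41, or 1.33-fold, just under 2 times the software's error, and 7.35% of all genes had a larger increase. It stayed positive throughout, at 0.22 after spike-in centring and 0.50 after the normexp correction. The spots in the 5 rows and columns around it had a median log2 difference of -0.19, and 0 spots within 300 µm differed 8-fold or more. The related receptor Stab2, from the wider list described below, had a signal of 1179 with DMSO and 2545 with GW4064, a log2 difference of 1.04, or 2.06-fold. Both stabilin genes were thus higher on the GW4064 array, under every setting, with Stab2 between 0.85 and 1.05.

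Msr1 encodes the class A scavenger receptor first described as the receptor for acetylated LDL. It was read by a pair of probes for the same transcript (NM_031195), and they disagreed. The probe A_52_P127130 had signals of 2943 and 3186, a log2 difference of 0.049. The probe A_52_P607128 had 5362 and 7047, a log2 difference of 0.33. Only the first of these values is below the software's error. The gap of 0.28 between the probes was wide, since among 2711 genes with 2 probes on both arrays the median gap was 0.10, and 13.3% had a wider one. Around the second probe, 9 other spots within 300 µm differed 8-fold or more between the arrays, against 0 around the first, and the part of such areas in the value was not tested. The mean of both probes was 0.19, it was 0.049 without areas of this kind, and it was -0.0020 after spike-in centring. Most of the mean thus came from 1 of the 2 probes.

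**Figure D2:**
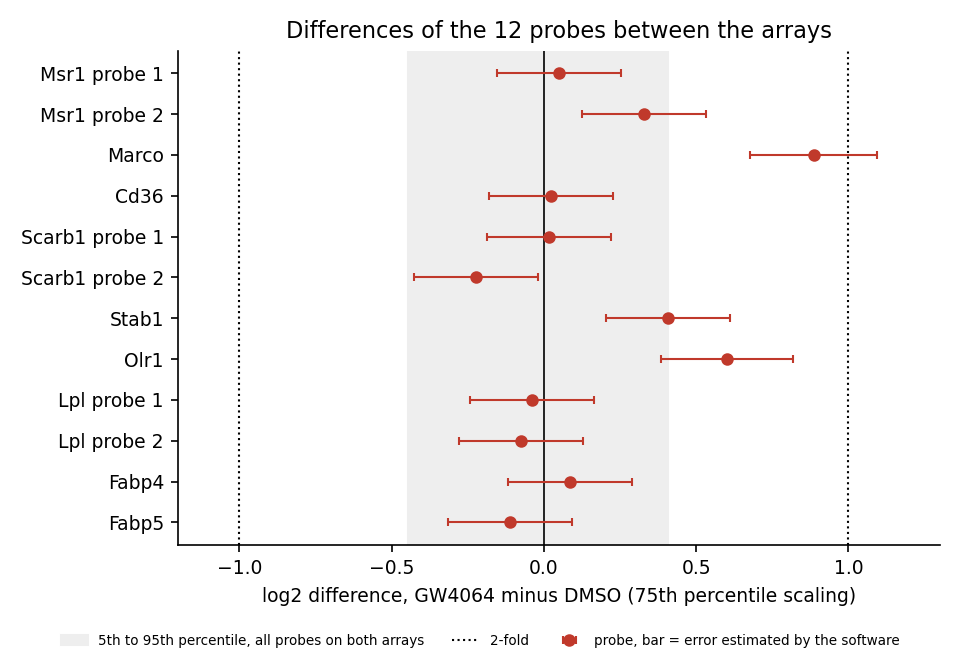
Log2 difference between the arrays (GW4064 minus DMSO, after 75th percentile scaling) for each of the 12 probes, with bars for the error that the scanner software gives for the spots. The grey band spans the 5th to the 95th percentile (-0.44 to 0.41) of the 21707 probes measured on both arrays and the dotted lines mark 2-fold. Marco and Olr1 lie beyond the band, Stab1 lies at its edge, and the bars of 7 probes cross 0.

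Cd36 encodes a class B scavenger receptor that binds oxidized LDL and also takes up long-chain fatty acids. Its probe (NM_007643) read 90888 with DMSO and 96679 with GW4064. The scaled log2 difference was 0.023, well inside both measures of spot error. It was between -0.17 and 0.040 over the settings, negative after spike-in centring, loess and quantile normalization, so no direction could be given. Pparg, the gene of the nuclear receptor known to induce Cd36 in macrophages, had signals of 17234 and 14600.2 and a log2 difference of -0.30 as the mean of 10 printed copies, and lay between -0.50 and -0.30 over the settings.

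Scarb1 encodes SR-BI, the class B receptor that binds HDL and exchanges cholesterol with it. Its probes (NM_016741) had signals of 4465 and 4726 for A_55_P1954021 and of 1198 and 1075 for A_55_P2088965. The log2 differences were 0.016 and -0.22, of opposite sign, and the gap of 0.24 was exceeded by 17.5% of genes with 2 probes. Their mean was -0.10, and the brighter probe alone gave 0.016. The data thus gave no common direction for Scarb1. Scarb2, which encodes the class B relative LIMP-2 of lysosomes, had a log2 difference of -0.036, from signals of 2654 and 2709.

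Lpl encodes lipoprotein lipase, which macrophages secrete. Its probes (NM_008509) had signals of 215576 and 219641 for A_51_P259296 and of 113381 and 112697 for A_52_P257812. The log2 differences were -0.039 and -0.074, a gap of 0.036, and 81.0% of genes with 2 probes had a wider gap. Both probes therefore gave a small value of the same sign, within the software's error, and the mean of -0.057 was -0.25 after spike-in centring. Of the genes whose products act on the lipase, Lmf1, needed for its folding, had 0.057. Gpihbp1, the anchor of the lipase on capillary endothelium, had 0.12 from low signals of 60.5 and 69.0. Both were negative after spike-in centring, and Gpihbp1 was also negative after the normexp correction, at -0.020. Angptl4, a secreted inhibitor of the lipase, was lower on the GW4064 array, from 4733 to 2685, with a log2 difference of -0.88, or 1.85-fold. It lay between -1.07 and -0.88 over the settings.

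Fabp4 and Fabp5 encode the fatty acid binding proteins best known from adipocytes and macrophages. The probe for Fabp4 (NM_024406) read 19039 with DMSO and 21136 with GW4064, a log2 difference of 0.085. The probe for Fabp5 (NM_010634) read 174430.3 and 169114, a log2 difference of -0.11. Both values were under the software's error, and Fabp4 was at -0.11 after spike-in centring. The FABP genes sit side by side in the RefSeq annotation of GRCm38.p6, in the order Fabp5, Pmp2, Fabp9, Fabp4 and Fabp12 among protein-coding genes. Pmp2, Fabp9 and both probes for Fabp12 were not well above background on either array, with signals of 8.18 or less, so that of these neighbours only Fabp4 and Fabp5 were measured. Of the FABP genes outside this cluster, Fabp3 (heart type) had a log2 difference of 0.51 as the mean of its probes, 0.43 and 0.59, and Fabp7 (brain type) had 0.40 from signals of 2304 and 3188. Fabp1, Fabp2 and Fabp6 were not well above background on either array. Fabp3 and Fabp7 were singled out after their values were seen, and both stayed positive under every setting.

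**Figure D3:**
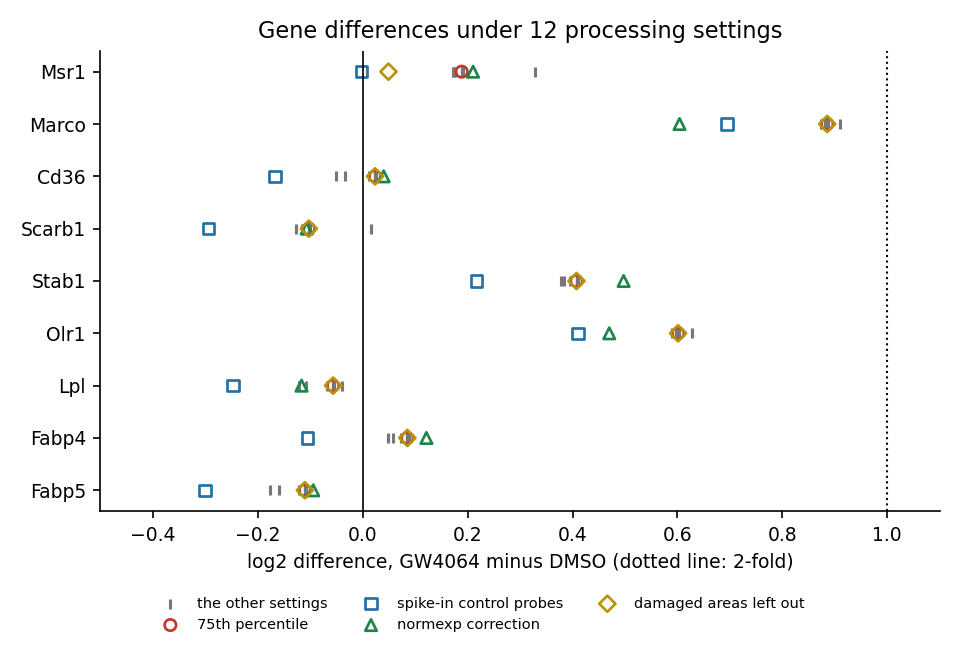
Log2 difference of each of the 9 measured genes under 12 processing settings, with the setting used in the text (circle), spike-in centring (square), normexp correction (triangle), damaged areas of the slide left out (diamond) and the other settings (bars). Marco, Olr1 and Stab1 lie above 0 under all of them, Lpl and Fabp5 lie below 0, and no gene reaches the dotted 2-fold line.

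A wider list of 67 genes of the same processes was placed beside the 10, with 66 having a probe and 54 measured. Of these, 22 were higher and 32 lower on the GW4064 array, with a median log2 difference of -0.045 (-0.24 after spike-in centring, with 7 higher and 46 lower). After that centring, 17.9% of all measured genes were higher, with a median of -0.18. Stab2 alone passed 2-fold upwards, and 0 genes did so downwards. At 1.5-fold, 4 were higher and 7 lower, a limit passed by 4.39% of all measured genes upwards and 5.56% downwards. Stab2, Hilpda and Nr0b2 were among the higher genes, and the last pair was singled out after its values were seen. Hilpda, which encodes an inhibitor of triglyceride breakdown at lipid droplets, had log2 differences of 1.02 and 0.97 on its probes, a mean of 0.99. Nr0b2 encodes SHP, a repressor known as a target of FXR in liver, and had 0.95 from low signals of 22.5 and 45.5, with 0.35 after the normexp correction. Around its only spot, 2 others within 300 µm differed 8-fold or more, so that it counted as lying in a damaged area, and the part of this area in the value was not tested. The lower genes beside Angptl4 were also singled out after their values were seen. Scara3, Ager and Cav1 were not well above background on the GW4064 array, so that their values are bounds, and so was 1 probe for Lrp8. Vldlr was read from signals of 41.2 and 25.3, and Slc27a3 had a log2 difference of -0.60.

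By function, the 12 measured genes of other scavenger receptors and related proteins had 3 higher and 9 lower, with a median of -0.19. With only probes well above background on both arrays, 9 were left, 2 higher and 7 lower, with a median of -0.15. Lrp1, a large receptor for lipoproteins and proteases, had -0.15 from signals of 18297 and 17305, and the probe for Cd163, the receptor for haemoglobin, stayed near background with both treatments. The lipoprotein receptors and handling genes had 4 higher and 6 lower with a median of -0.096. Lipa, the lysosomal acid lipase, had a log2 difference of 0.057, and -0.13 after spike-in centring. Genes of fatty acid binding, uptake and activation had 5 higher and 7 lower with a median of -0.033. Genes of lipid droplets had 7 higher and 5 lower with a median of 0.014, which was negative after loess, quantile normalization, spike-in centring and leaving out damaged areas. Plin2, which coats lipid droplets, read 80543 and 84641, a log2 difference of 0.0059. The nuclear receptors PPAR, LXR, FXR and their partners had 3 higher and 5 lower with a median of -0.12, and 2 higher and 5 lower without damaged areas. In this group the only probe for Nr1h4, the gene of FXR itself, was below the background limit with both treatments, with signals of 3.46 and 3.24. Around its spot, 4 others within 300 µm differed 8-fold or more, so that it counted as lying in a damaged area. The paper reports Nr1h4 mRNA in BMDMs by real-time PCR, so the low array signal does not show that the gene is silent.

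**Figure D4:**
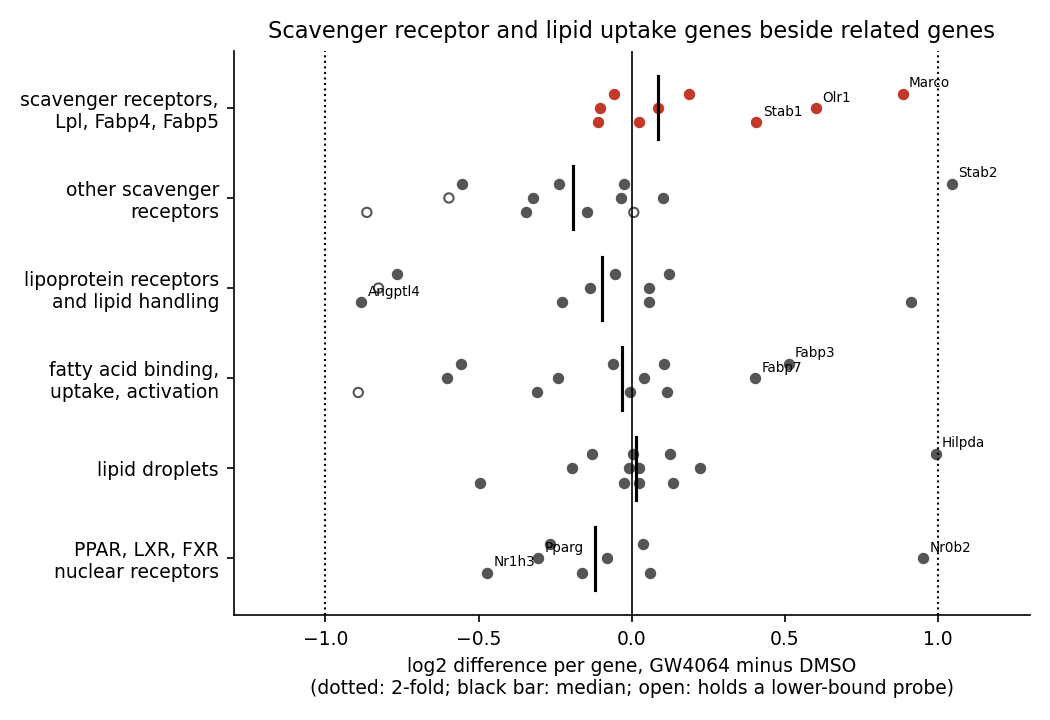
Log2 difference per gene (GW4064 minus DMSO) for the 9 measured genes (red) and for 5 groups of related genes (grey), with the median of each group as a black bar, 2-fold as dotted lines and open points for genes with a lower-bound probe. Stab2 is the 1 gene beyond 2-fold, and the group medians lie between -0.19 and 0.085.

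Other cell types also express some of these genes, such as adipocytes for Fabp4, Lpl and Cd36, and endothelium for Stab1 and Cd36. All 8 macrophage markers were well above background on both arrays, with 4 higher and 4 lower and a median of 0.024. The median was negative after quantile normalization, loess, the normexp correction and spike-in centring, the last of which gave 0 higher and 8 lower with a median of -0.17. Spike-in centring put the median of all measured genes at -0.18. Summed signals of marker lists are given before scaling between arrays. Of 6 adipocyte markers, Plin1, Cfd, Lep and Cidec were not well above background on either array, and the summed signal of the other pair was 119.6 with DMSO and 126 with GW4064. Of 6 endothelial markers, 5 were measured, with a summed signal of 18531 with DMSO and 19170.3 with GW4064, and Tek was not well above background. Stab2 was the 1 higher gene among them, and the other 4 were lower, with a median over the 5 of -0.13. The summed signal of 7 measured stromal markers was 17379 with DMSO and 9803 with GW4064, with 6 of 7 lower, and that of 5 measured neutrophil markers was 13369.7 and 8673, with all 5 lower. Of 6 B and T cell markers, 2 were measured, with a summed signal of 245 and 256, and Ms4a1 was at least 2.47-fold lower, not well above background with GW4064. The part of these cells in the differences given above was not tested, and fewer cells of a type cannot be told apart from less RNA per cell. Of 6 genes of the IL-4 response, 4 were higher and 2 lower with a median log2 difference of 0.33, and 3 were higher and 3 lower with 0.14 after spike-in centring. Arg1 was 2-fold or more higher, with a log2 difference of 3.82. Of the others, named after their values were seen, Retnla had 0.91, Ccl17 had 0.60 and Chil3 had 0.066, or -0.12 after spike-in centring. Pdcd1lg2 had -0.41, and the mannose receptor gene Mrc1, itself an endocytic receptor, had -0.34.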

How the data were processed

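For each array the authors deposited a scanner file from Agilent Feature Extraction 10.7.1.1, in which the intensity of a spot is corrected for background and for trends across the array but not scaled between arrays. They also deposited a log2 table whose difference between columns matched the one computed here to within 0.01 at all 39200 probes, once a constant of 0.0022 was allowed for. Its columns have medians of 0.035 (DMSO) and -0.051 (GW4064), its direction and scale follow from this match, and the baseline on which each probe was centred stays unknown. GeneSpring 14 is named in the methods for the pathway analysis.

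Here, processed signals were divided by the 75th percentile of all non-control spots (1209 for DMSO and 1265 for GW4064) and taken to log2. Spots marked as uneven or as outliers among copies were left out. Of 39200 probes, 57.4% and 58.5% were well above background. A probe well above background on 1 array only gave a lower bound, taken against the lowest value well above background on the other array (or the probe's own value there, if higher), and was set to 0 if it pointed the other way. Probes that passed on either array were averaged per gene. Gene symbols of 26445 probes were found through RefSeq transcripts (GRCm38.p6), and coordinates are left out because the array was designed on another build. An area of the slide was called damaged where 2 or more other spots within 300 µm differed 8-fold or more, which covered 16.5% of spots.

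The 10 genes, the lists and the alternatives were chosen with earlier results of these data known. The genes named are the 10, genes of the lists that differed 2-fold or more, and 11 related genes set by name (1 of them is not reported here), and others are marked in the text as chosen after their values were seen. Alternatives were quantile normalization, centring on the median or the spike-in RNA, loess (span 0.3), the deposited table, normexp (offset 50) on the median intensity, marked spots kept, other filters on dim probes, damaged areas left out, the brightest probe and a 1.5-fold threshold. The number of arrays limits the precision. The calculations were tested on simulated data, with changes above 2-fold planted in probes brighter with DMSO than those for Marco and Olr1. That test does not cover smaller differences at dim spots. Tools were limma 3.58.1 in R 4.3.3, and scipy 1.17.1, pandas 2.3.3, numpy 2.4.6 and matplotlib 3.10.9 in Python 3.11.15.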

Additional observations from a re-analysis of the deposited data

How the results depend on the processing

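No paired analysis was possible because there is 1 array for DMSO and 1 for GW4064, and none could be left out. Of 99 values of single genes under the 11 alternatives, 93 had the direction given in the report and 6 had the other, for Cd36 in 3 settings, for Msr1 and Fabp4 after spike-in centring and for Scarb1 with its brightest probe. Many of the 93 could not have differed. The filters on spots, probes and areas and the brightest probe leave most genes read by 1 probe unchanged, and the deposited table differs only by a constant of 0.0022. Spike-in centring moved the 9 genes to 3 higher and 6 lower with a median of -0.11, and the wider list to 7 higher, of which 0 passed 2-fold upwards and 4 downwards. Over all genes it gave a median of -0.18, with 17.9% higher. It put 211 genes past 2-fold upwards and 522 downwards, so that 28.8% of such genes were higher against 42.9%. The numbers of all genes past 2-fold upwards and downwards were 72 and 64 after the normexp correction, 107 and 164 when a probe had to pass on both arrays, 698 and 767 without a filter on dim probes, which also gave 4 lower genes in the wider list, 168 and 202 without damaged areas, and 594 and 752 at 1.5-fold, where the wider list had 4 higher and 7 lower. None of the 9 genes reached 2-fold under any of them. Marco and Olr1 were read at dim spots.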
